A study of Mus musculus with 6 samples.

Results

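Hypertrophy is the last stage of a chondrocyte's life in cartilage that will be replaced by bone. The cell swells, changes its matrix from collagen II to collagen X, secretes proteases that open the matrix and signals to blood vessels. RUNX and MEF2 transcription factors drive the change, and parathyroid hormone-related protein, acting through the receptor encoded by Pth1r, is known to hold it back. The genes described here are 7 markers and regulators of that stage, chosen by name: Col10a1, Mmp13, Cd200, Mef2c, Runx3, Panx3 and Vegfa. All 7 were among the 24346 gene names in each file, and all 7 were among the 13180 names tested, those with a mean of at least 1 FPKM. FPKM are fragments scaled to transcript length and library total, so levels can be compared between genes.

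The tissue was the roof of the skull (calvaria) of newborn mice, taken with the interparietal and occipital bone and without the cartilage of the ears, per the labels. Controls (3 libraries) had the genotype Pth1rfl/fl, floxed alleles of Pth1r with no Cre named, and 3 libraries labelled mutant had Prx1-Cre;Pth1rfl/fl. Prx1-Cre is known to act in mesenchyme of the limbs and skull and not in blood-derived cells, so other cells of a mutant calvaria would keep the receptor. The sources used here do not give sex, age in days, the number of animals in a library or their litters, so the spread between libraries may be partly technical.

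For Pth1r, the floxed gene, FPKM ran higher under the mutant label, without passing the test. Pth1r had 89.2, 93.3 and 102 FPKM in controls, against 127, 125 and 142 FPKM in libraries labelled mutant (adjusted p = 0.065 from limma, Benjamini-Hochberg). Directions below are therefore those of the labels. Relative depth, read from the steps in the lowest values, ran from 0.703 to 1 with control 1 set to 1. Only 43.7% to 47.8% of the low genes used lay within 2% of the chosen step, so these are rough estimates. By them, libraries 2 and 3 labelled mutant were the shallowest. Control 3 had a lower summed level of 18 cartilage matrix genes (1484 FPKM) than controls 1 and 2 (2710 and 2717 FPKM). Control 2 held 88.8 FPKM over 5 inner ear genes, against 1.62 to 5.36 FPKM in the other libraries.

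As a group, the hypertrophy genes lay higher in the libraries labelled mutant, but by very unequal amounts. Mmp13 rose, Col10a1 had 2.50 times the control mean without passing the test, Cd200, Panx3, Runx3 and Mef2c had 1.18 to 1.40 times the control mean without passing, and Vegfa had 0.945 times the control mean. Thus 1 of 7 genes passed at an adjusted p of 0.05, where 0.607% of all tested genes passed in either direction and 0.524% passed as higher (limma on log2(FPKM + 1), Benjamini-Hochberg adjustment over all tested genes). That background of 80 genes fell to between 16 and 44 when any 1 library was left out, and Mmp13 was the 1 member called each time. Values of the groups did not overlap for 5 of 7 genes, all higher, against 16.1% of tested genes in either direction and 9.34% in that direction. The median log2 change was 0.39 over the 7 genes and 0.0015 over all tested genes, and 6 of 7 were above 0, as were 50.5% of tested genes. An unadjusted p under 0.05 in limma was found for 4 of 7 genes and for 10.5% of all tested genes. That 10.5% is also the share to set beside the list counts at an unadjusted p below. The genes were chosen with such values known, so these counts describe them and test nothing. In whole tissue, fewer cells of a type and less RNA per cell cannot be told apart.

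**Figure D1:**
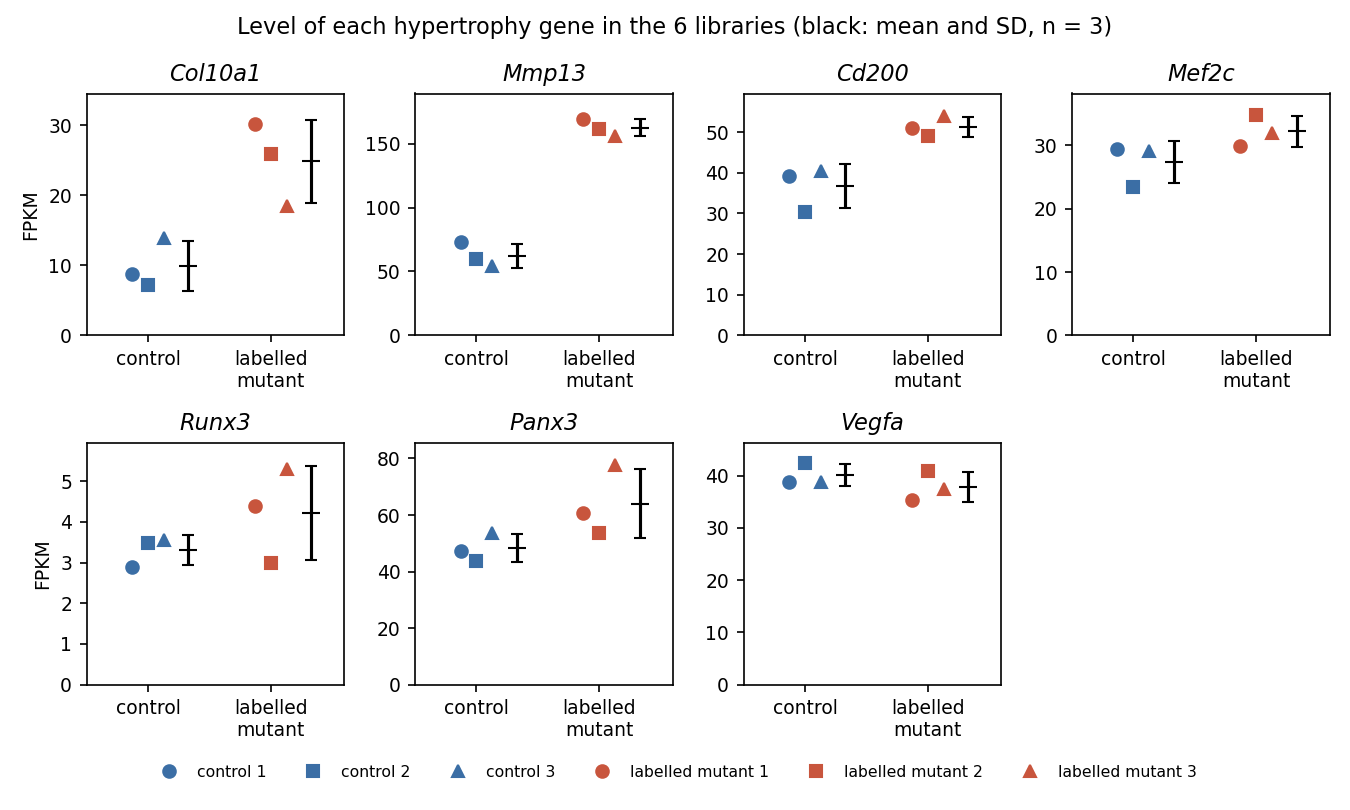
FPKM of each of the 7 genes in the 3 control and 3 labelled mutant libraries (points, 1 per library), with the mean and SD in black. Groups are apart for Col10a1, Mmp13, Cd200, Mef2c and Panx3, the last 2 of these by under 1 FPKM, and overlap for Runx3 and Vegfa.

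Sequence before the transcription start is shown for Mmp13, which passed the test, and for Col10a1, which had the next largest change. It is also shown for the first start of Runx3, a RUNX factor, because that window held RUNX letters. RefSeq promoter sequence on GRCm38.p6 was found for 6 of the 7 genes, with 10 start sites in all, and Panx3 had no entry. Each line gives the 250 bases before the start, 5′ to 3′ along the gene, and capitals mark motif matches on either strand.
Mmp13 promoter, chr9:7272264-7272513, plus strand: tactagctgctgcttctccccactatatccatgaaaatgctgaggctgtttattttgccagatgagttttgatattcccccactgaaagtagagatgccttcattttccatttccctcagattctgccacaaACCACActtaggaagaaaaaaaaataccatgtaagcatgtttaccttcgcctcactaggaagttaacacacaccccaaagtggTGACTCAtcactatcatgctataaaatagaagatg
Col10a1 promoter, chr10:34389731-34389980, plus strand: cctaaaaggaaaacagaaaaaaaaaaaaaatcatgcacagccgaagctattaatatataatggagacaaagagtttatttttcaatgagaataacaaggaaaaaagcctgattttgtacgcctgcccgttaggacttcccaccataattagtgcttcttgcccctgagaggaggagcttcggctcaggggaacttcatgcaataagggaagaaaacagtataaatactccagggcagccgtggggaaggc
Runx3 promoter, chr4:135120395-135120644, plus strand: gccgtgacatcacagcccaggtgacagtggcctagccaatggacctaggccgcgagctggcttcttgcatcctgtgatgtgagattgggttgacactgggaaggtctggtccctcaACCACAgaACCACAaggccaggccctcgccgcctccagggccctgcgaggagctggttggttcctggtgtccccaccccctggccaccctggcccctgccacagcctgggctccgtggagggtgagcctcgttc
Searched motifs were TGTGGT for RUNX factors, TGANTCA for AP-1 and ACGTG for HIF, with no overlap between matches in the lines above. Among 32851 promoter windows of the same length, 14% held the RUNX letters, 6.75% AP-1 and 16.6% HIF. Mmp13 held ACCACA, the RUNX letters read on the other strand, from 118 to 113 bases before its start, and the AP-1 match TGACTCA from 35 to 29 bases before it. Runx3 held ACCACA at 134 to 129 and again at 126 to 121 bases before its first start, and none of the 3 motifs before its second. Col10a1 held none of the 3 in this window, nor did Cd200. At other starts, the third of Mef2c held an AP-1 match and the second of Vegfa held a HIF match. The first start of Vegfa held none of the 3. For the second start of Vegfa, and the second of Mef2c, the bases after the start were not found in a GENCODE M21 transcript of the gene. Whether the Vegfa match lies in a promoter is thus unknown. All matches are letters found, with no measurement of binding.

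Mmp13 encodes collagenase-3, which cuts fibrillar collagen at the border between hypertrophic cartilage and bone, and osteoblasts make it too. The gene spans chr9:7272514-7283331 on the plus strand of GRCm38 and overlaps no other gene in GENCODE M21. It had 72.8, 59.4 and 54.2 FPKM in controls, against 169, 162 and 156 FPKM in libraries labelled mutant. All 3 libraries labelled mutant lay far above the highest control, control 1, and the values within each group lay close together. Means were 62.2 ± 9.61 and 162 ± 6.64 FPKM (SD, n = 3 each), a ratio of 2.61. On the log2(FPKM + 1) scale it rose by 1.38 ± 0.11 (SE), with a 95% confidence interval from 1.13 to 1.64 (limma, Benjamini-Hochberg adjusted p = 0.00415). By p it stood at place 12 of 13180 genes and by size of change at place 67. It passed in all 15 alternative fits, which left out each library in turn or changed the pseudocount, filter, scaling or model, with a log2 change between 1.29 and 1.50 and an adjusted p of at most 0.0384.

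Col10a1 encodes the collagen X chain, the standard marker of the hypertrophic chondrocyte. It lies at chr10:34389981-34397085 on the plus strand, inside the span of Nt5dc1 on the minus strand, and the sources used here do not say whether counting used strand. Nt5dc1 had 2.93 ± 0.465 FPKM in controls and 2.87 ± 0.438 FPKM in the libraries labelled mutant (SD, n = 3 each). Col10a1 had 8.73, 7.16 and 14.0 FPKM in controls, against 30.2, 25.9 and 18.5 FPKM in libraries labelled mutant. The groups were apart, with control 3 the highest control and library 3 the lowest of those labelled mutant. Means of 9.95 ± 3.57 and 24.8 ± 5.91 FPKM (SD, n = 3 each) differed by 1.26 ± 0.25 (SE) on the log2 scale, with a 95% confidence interval from 0.66 to 1.86. That did not pass over all genes (limma, Benjamini-Hochberg adjusted p = 0.109), nor in any of the 15 alternative fits (adjusted p between 0.0725 and 0.283). Its difference was thus close to that of Mmp13 in size, and its SE was larger. Within controls its highest value was 1.95 times its lowest, the widest spread among the 7 genes there.

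The changes of the 2 genes are set beside those of the other 5 in the plot of log2 changes.

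**Figure D2:**
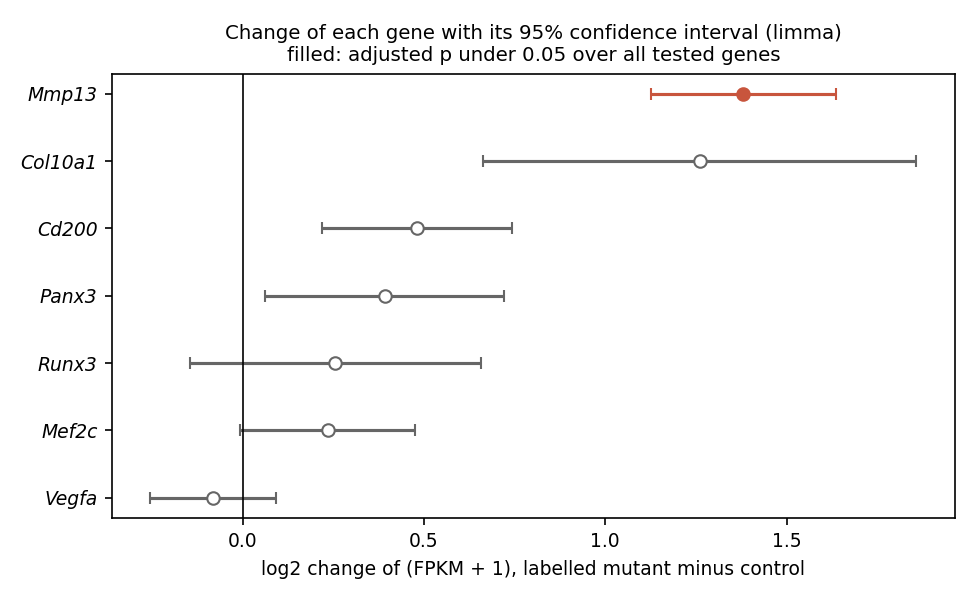
Log2 change of FPKM + 1 (labelled mutant minus control) for each of the 7 genes, with its 95% confidence interval from limma. Mmp13, filled, passed at an adjusted p of 0.00415, and the intervals of Mef2c, Runx3 and Vegfa include 0.

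Because the cartilage matrix genes lay lower in the libraries labelled mutant, Col10a1 was also read against them within each library. In all, 5 of 18 matrix genes fell and 0 rose (limma, Benjamini-Hochberg adjustment). They were Matn1 for matrilin-1, Ucma of growth cartilage, the collagen IX gene Col9a3, Lect1 for chondromodulin and the proteoglycan gene Epyc, with a median log2 change of -0.97 over the list. That count was 0 without control 1, control 2 or library 1 labelled mutant, 7 without control 3, 2 without library 2 and 1 without library 3 labelled mutant, and over the 6 libraries, with no block, robust eBayes left 1 and dropping the FPKM filter left 2. Log2(FPKM + 1) of Col10a1 minus the mean over the 18 matrix genes was -2.86, -3.03 and -1.49 in controls and 0.15, 0.36 and -0.40 in the libraries labelled mutant. The groups were apart, and the mean difference was 2.501, larger than the SD of 0.85 in controls and 0.39 in the libraries labelled mutant. Col10a1 itself differed by 1.26, which did not pass, and the rest came from the lower mean of the matrix genes. Any gene that did not fall with that list would stand higher in this measure. An exact permutation test, two-sided, gave p = 0.1, the smallest that 3 values against 3 allow. It cannot separate a rise of Col10a1 from the lower matrix genes. Set against Col2a1, the main collagen of unripe cartilage, Col10a1 came to 1.09%, 0.909% and 4.01% of its FPKM in controls. In the libraries labelled mutant it came to 16.0%, 19.2% and 12.4%. Against Acan, the aggrecan gene, it came to 8.15%, 7.05% and 18.8% in controls and 42.2%, 48.1% and 28.9% in the libraries labelled mutant. These 2 ratios were chosen after the values were seen. Control 3, which had the least matrix RNA of the controls, stood nearest to the libraries labelled mutant in each of these measures, and without it the mean difference was 2.99 on the log2 scale.

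Mmp13 was read in the same way against genes of osteoclasts, the bone-resorbing cells, and of osteoblasts, the bone-forming cells. Of 13 osteoclast genes, 9 rose and 0 fell, among them the protease genes Ctsk and Mmp9, the cell fusion gene Dcstamp and the proton pump gene Atp6v0d2, and the list's summed level was 679 to 763 FPKM in controls and 1749 to 1896 FPKM in the libraries labelled mutant. Between 6 and 9 passed when any 1 library was left out, with 6 without library 1 labelled mutant. Relative to the osteoclast mean, Mmp13 stood at 2.27, 1.77 and 1.68 log2 units in controls and at 2.197, 2.21 and 2.23 in the libraries labelled mutant. The groups overlapped, since control 1 was the highest of all 6, and the mean difference was 0.30 (exact permutation test, two-sided, p = 0.4). With the median over the list in place of the mean, the libraries labelled mutant were all higher, by 0.47 (p = 0.1 in the same exact test, the smallest possible). As a share of Acp5, the gene of tartrate-resistant acid phosphatase, Mmp13 had 54.9%, 34.1% and 34.0% in controls and 34.7%, 34.5% and 31.4% in the libraries labelled mutant, also overlapping. As a share of Mmp9 it had 87.4%, 50.4% and 47.7% in controls and 45.2%, 46.3% and 40.7% in the libraries labelled mutant, where the groups were apart with the controls higher. Both ratios were chosen after the values were seen. Relative to the mean of 12 osteoblast genes, Mmp13 stood at -1.09, -1.29 and -1.66 log2 units in controls and at 0.18, -0.0048 and -0.27 in the libraries labelled mutant. Here the groups were apart, by 1.31 between means (exact permutation test, two-sided, p = 0.1, the smallest possible). Of the osteoblast genes 1 of 12, Ibsp, rose, a call that ended in 5 of the 6 fits that left out a library. An unadjusted p under 0.05 was found for 7 of 12, against 10.5% of all tested genes. Col1a1 and Col1a2, the most abundant, had ratios of 1.05 and 1.03. The groups were apart for 7 of the 12, with 5 higher and 2 lower in the libraries labelled mutant. Picked out after their values were seen, Alpl and Mepe had ratios of 1.41 and 1.85, and the osteocalcin genes Bglap and Bglap2, near-identical copies, had ratios of 0.381 and 0.387. The relative measure thus rests on a mean over genes that differed in opposite directions, and with the median over the list the difference was 1.89. Which cells held the added Mmp13 RNA was not tested.

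**Figure D3:**
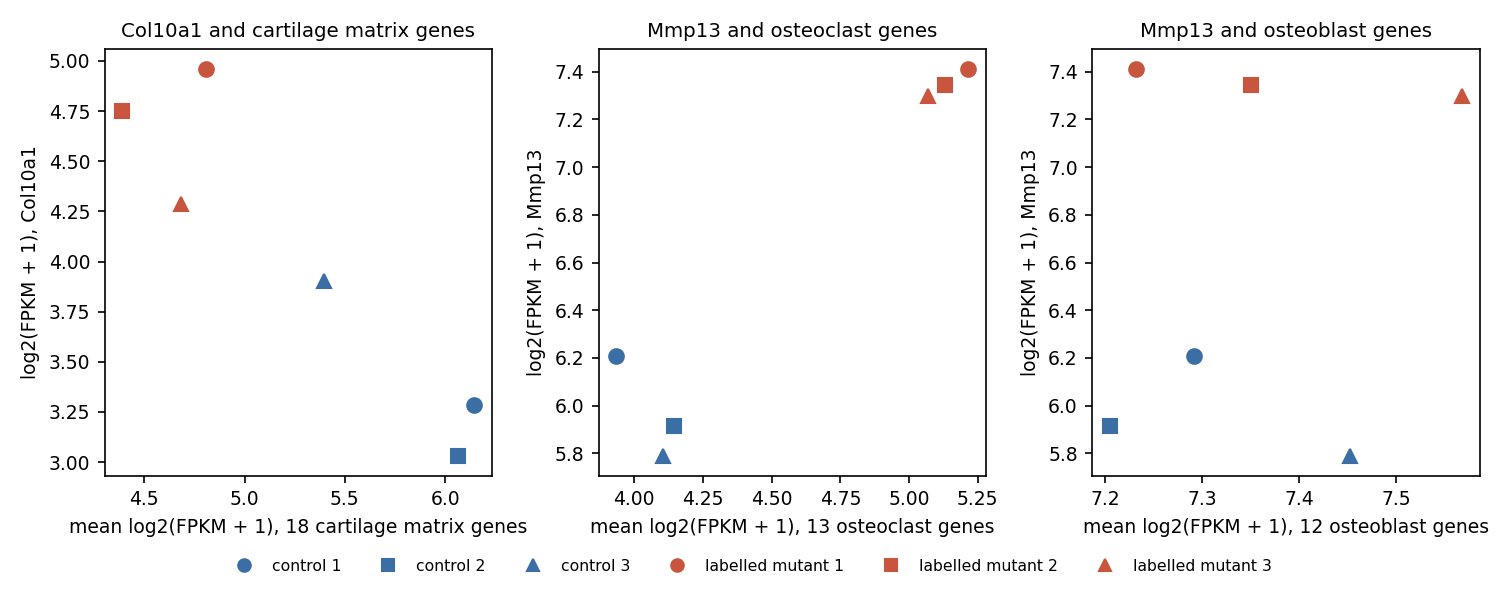
Log2(FPKM + 1) of Col10a1 or Mmp13 (vertical) against the mean log2(FPKM + 1) of a gene list (horizontal), 1 point per library. Col10a1 was high in the 3 libraries where the 18 matrix genes were low, Mmp13 and the 13 osteoclast genes were both high in the libraries labelled mutant, and the mean over the 12 osteoblast genes overlapped between groups.

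Among transcription factors, neither member passed. Mef2c, which activates Col10a1 and other hypertrophy genes and is also active in muscle, vessels and neurons, lies at chr13:83504034-83667080 on the plus strand. It had 29.4, 23.5 and 29.0 FPKM in controls, against 29.8, 34.8 and 32.0 FPKM in libraries labelled mutant. The groups were apart only narrowly, and control 2 was lowest. The log2 difference was 0.23 ± 0.10 (SE), with a 95% confidence interval from -0.01 to 0.48 (limma, Benjamini-Hochberg adjusted p = 0.496). Of the other genes its cell types express, 0 of 8 muscle genes and 0 of 10 neural genes passed in limma (0 and 1 had an unadjusted p under 0.05), and all 18 had a log2 change below 0. The endothelial list lay the other way, with 8 of 9 genes above 0, 7 of 9 with an unadjusted p under 0.05 and 1 called. Of all tested genes, 10.5% had an unadjusted p under 0.05. Summed neural RNA was uneven, from 40.8 to 145 FPKM in the libraries labelled mutant, with library 2 highest, and Mef2c was highest in that library too. Summed muscle RNA was likewise highest in library 2, at 11591, 15204 and 9042 FPKM in libraries 1, 2 and 3 labelled mutant. It was lowest in library 3, and Mef2c in library 1. In controls muscle RNA came to 17242, 10594 and 12052 FPKM, lowest in control 2, as Mef2c was. The part of muscle, neural or vessel RNA in the level of Mef2c was not tested.

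Runx3, a RUNX factor that acts with Runx2 in chondrocyte maturation and is also known from T and NK cells, was the least abundant of the 7 genes. It lies at chr4:135120652-135177990 on the plus strand, where GENCODE M21 also places the antisense gene Gm16224. Its values were 2.89, 3.49 and 3.55 FPKM in controls, against 4.38, 2.99 and 5.29 FPKM in libraries labelled mutant. Library 2 labelled mutant lay within the controls and the other two lay above them. The log2 difference of 0.26 ± 0.17 (SE) had a 95% confidence interval from -0.15 to 0.66 (limma, Benjamini-Hochberg adjusted p = 0.69). Lymphoid markers were near 0, with a summed level over 9 genes of 2.58 to 3.57 FPKM in controls and 3.06 to 3.45 FPKM in the libraries labelled mutant, and Cd3e, Cd3d, Cd3g, Cd2, Ms4a1 and Nkg7 were listed at 0 in at least 1 library. Only Cd79b of that list averaged 1 FPKM, and it did not pass (ratio 0.951). Related genes were more abundant. Runx2, the master regulator of osteoblasts and hypertrophic chondrocytes, had 29.7 ± 0.868 and 36.0 ± 5.32 FPKM (SD, n = 3 each). Runx1, which is expressed in blood and skeletal precursors, had 5.60, 4.61 and 5.39 FPKM in controls, against 8.29, 7.25 and 8.18 FPKM in libraries labelled mutant (adjusted p = 0.0709 from limma, Benjamini-Hochberg). Their shared partner Cbfb had a ratio of 1.07. Mef2a and Mef2d, the relatives of Mef2c above 1 FPKM, had ratios of 1.11 and 1.05.

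The genes of membrane proteins, Panx3 and Cd200, had intermediate differences. Panx3 encodes pannexin 3, a channel of prehypertrophic chondrocytes and osteoblasts that releases ATP, and lies at chr9:37659902-37669235 on the minus strand. It had 47.2, 43.8 and 53.5 FPKM in controls, against 60.9, 53.7 and 77.5 FPKM in libraries labelled mutant. The groups were apart by less than 1 FPKM, between control 3 and library 2 labelled mutant. The log2 difference was 0.39 ± 0.14 (SE), with a 95% confidence interval from 0.06 to 0.72 (limma, Benjamini-Hochberg adjusted p = 0.365). The osteoblast gene Ibsp, which encodes bone sialoprotein, rose and had the higher ratio, and Panx3 came to 5.02%, 5.27% and 5.61% of its FPKM in controls and 3.42%, 3.62% and 3.87% in the libraries labelled mutant. Relative to Sp7, the osteoblast factor osterix, it had a larger share in the libraries labelled mutant, at 61.0%, 53.5% and 59.8%, against 48.2%, 45.4% and 48.0% in controls. Both ratios were chosen after the values were seen, and in both the groups were apart. Of the other pannexins, Panx1 had 9.26 ± 0.597 and 9.22 ± 0.433 FPKM (SD, n = 3 each), and Panx2 was below 1 FPKM.

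Cd200 encodes a surface glycoprotein that quiets myeloid cells through its receptor and is used as a marker of hypertrophic chondrocytes, although vessels and neurons carry it as well. The gene lies at chr16:45382135-45409053 on the minus strand. Its values were 39.3, 30.5 and 40.6 FPKM in controls, against 51.0, 49.0 and 53.9 FPKM in libraries labelled mutant. The 3 libraries labelled mutant were close together and all above the controls, of which control 2 was again lowest. The log2 difference was 0.48 ± 0.11 (SE), with a 95% confidence interval from 0.22 to 0.74 (limma, Benjamini-Hochberg adjusted p = 0.164, and between 0.0923 and 0.362 over the alternative fits). The receptor gene Cd200r1 had a ratio of 0.936. Summed RNA of 9 endothelial genes was 263 to 283 FPKM in controls and 312 to 316 FPKM in the libraries labelled mutant. In that list 1 of 9 genes, Emcn, a sialomucin of vessel lining, rose, but in none of the 6 fits that left out a library (highest adjusted p of the alternative limma fits 0.192). The neural list lay the other way, with all 10 genes at a log2 change below 0. Summed neural RNA was lowest, at 40.8 FPKM, in library 3 labelled mutant, where Cd200 was highest. The part of vessel or neural RNA in the level of Cd200 was not tested.

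Vegfa, the growth factor by which hypertrophic cartilage draws in vessels, was the 1 gene of the 7 with a lower mean in the libraries labelled mutant. It lies at chr17:46016993-46032369 on the minus strand. Its values were 38.9, 42.5 and 38.9 FPKM in controls, against 35.3, 41.0 and 37.4 FPKM in libraries labelled mutant. The groups overlapped, and control 2 was highest. The log2 difference was -0.08 ± 0.07 (SE), and its 95% confidence interval, from -0.25 to 0.09, ends below the 1.13 at which that of Mmp13 begins (limma, Benjamini-Hochberg adjusted p = 0.802). Of the other 4 ligands of the family and the 5 receptors and coreceptors, 0 of 9 passed in limma (2 at an unadjusted p under 0.05). Those 2 were receptors of vessel lining: Flt4 had 3.28 ± 0.0856 and 4.73 ± 0.482 FPKM, and Flt1 had 5.999 ± 0.276 and 7.84 ± 0.458 FPKM (SD, n = 3 each). Placental growth factor, Pgf, had a ratio of 0.901. Genes induced by low oxygen, which also induces Vegfa, gave 0 of 10 calls in limma (and 0 with an unadjusted p under 0.05), with Ldha and Pgk1, the most abundant, at ratios of 0.952 and 0.987. Relative to the mean of those 10 genes, Vegfa stood at 0.96, 1.31 and 1.19 log2 units in controls and 0.91, 1.09 and 1.37 in the libraries labelled mutant, overlapping, with a mean difference of -0.034 (exact permutation test, two-sided, p = 0.9).

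Whether the genes moved together was read library by library. Each library labelled mutant had 6 of the 7 genes above their median over the 6 libraries, while controls 1, 2 and 3 had 0, 1 and 2. Libraries 1 and 3 labelled mutant exceeded every control in 6 genes, all but Vegfa, and library 2 in 5, all but Runx3 and Vegfa. For the 5 genes whose groups did not overlap, these counts follow from the group difference. They restate it and do not show that the genes vary together. Within the groups the order of libraries was not shared. Among the libraries labelled mutant, Col10a1 and Mmp13 were highest in library 1 and lowest in library 3, while Cd200, Runx3 and Panx3 were highest in library 3 and lowest in library 2. Mef2c and Vegfa were highest in library 2 and lowest in library 1. Among controls, Col10a1, Cd200, Mef2c and Panx3 were lowest in control 2, and Col10a1, Cd200, Panx3 and Runx3 were highest in control 3, where Mmp13 was lowest. So all 3 libraries labelled mutant lay above the controls in 5 of the 7 genes, against 9.34% of all tested genes, and not in Runx3 or Vegfa.

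**Figure D4:**
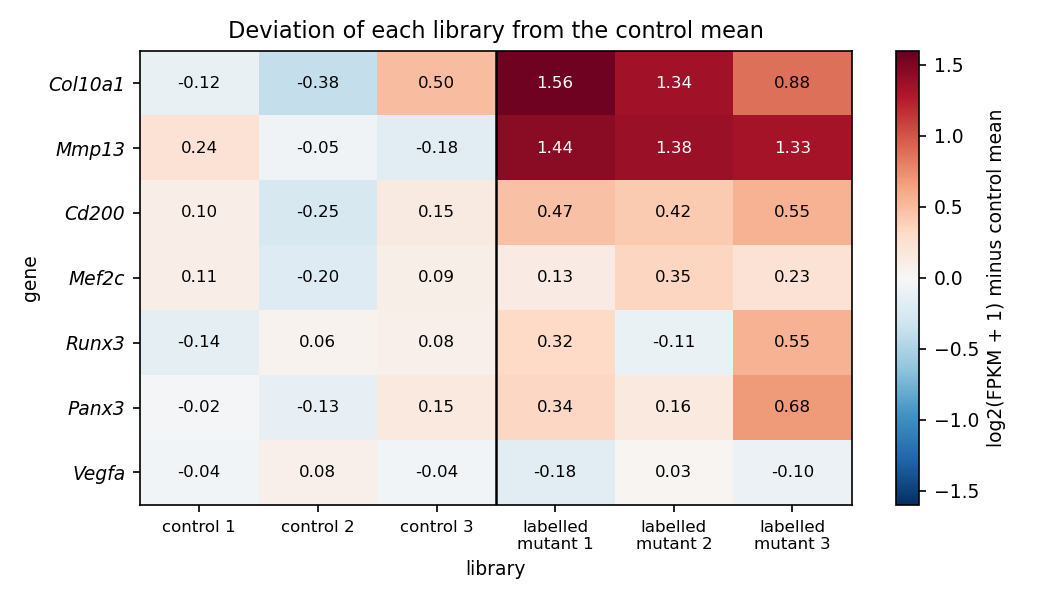
Log2(FPKM + 1) of each gene (rows) in each library (columns) minus the mean of the 3 controls, with the value printed in each cell and red for higher. Col10a1 and Mmp13 reach 0.88 to 1.56 in the libraries labelled mutant, the other genes at most 0.68, and the order of the 3 libraries differs between Mmp13 and Panx3.

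Levels kept much of their order. In controls, from high to low, the order of mean FPKM was Mmp13, Panx3, Vegfa, Cd200, Mef2c, Col10a1 and Runx3, and the ranges of neighbours overlapped for Vegfa and Cd200. In the libraries labelled mutant Cd200 stood above Vegfa with ranges apart, Panx3 overlapped Cd200, and Col10a1 overlapped Mef2c. Col10a1 lay well under Mef2c in controls, at 7.16 to 14.0 against 23.5 to 29.4 FPKM, and reached 18.5 to 30.2 against 29.8 to 34.8 FPKM in the libraries labelled mutant.

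The tested genes whose profile over the 6 libraries was nearest to that of Mmp13 were Dcstamp, Slc9b2, Atp6v0d2, Ctsk and Slc37a2. Likeness was the root mean square difference of log2 values centred on each gene's mean, and it ran from 0.15 to 0.19 for these genes. The measure includes the difference between the groups, so genes with a difference of similar size lie near each other by construction. It does not show that genes vary together within a group or share a cell type. Nearest to Col10a1 were Stfa2, Tmie, Atp6v0d2, Cd37 and Oscar, at 0.14 to 0.29. The distance between Mmp13 and Col10a1 themselves was 0.38, which made Col10a1 number 55 in nearness to Mmp13 and Mmp13 number 29 in nearness to Col10a1. Cd200 came next among the members, at 0.48 from Mmp13 and 0.49 from Col10a1, and Vegfa was farthest from both, at 0.75 and 0.76.

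Of 28 other genes of chondrocyte maturation, 25 were tested, 2 rose and 0 fell, with a median log2 change of 0.10 and 18 of 25 above 0. The risers were Mmp9, a gelatinase of hypertrophic cartilage borders and osteoclasts, and Ibsp. Mmp9 had 83.4, 118 and 114 FPKM in controls, against 375, 349 and 384 FPKM in libraries labelled mutant, and passed in all 15 alternative fits. Ibsp had 939, 831 and 954 FPKM in controls, against 1778, 1485 and 2004 FPKM in libraries labelled mutant. Its call (limma, Benjamini-Hochberg adjusted p = 0.0306) ended without any 1 control, without library 1 or 3 labelled mutant and with no filter on low values (up to 0.128 over the alternative fits). The smallest p after these was that of Pth1r, given above. The following were picked out after their values were seen. Ihh, the hedgehog ligand of prehypertrophic chondrocytes, had 4.02, 3.91 and 3.74 FPKM in controls, against 4.60, 4.06 and 5.49 FPKM in libraries labelled mutant (adjusted p = 0.545 from limma, Benjamini-Hochberg). Pthlh, the gene of parathyroid hormone-related protein, had 2.48 ± 0.606 and 4.40 ± 0.496 FPKM (SD, n = 3 each; limma adjusted p = 0.144). Sox9, the chondrocyte factor that opposes hypertrophy, had 6.42 ± 1.32 and 3.80 ± 0.618 FPKM (SD, n = 3 each; limma adjusted p = 0.178). Bmp6 of this list also lay lower in the libraries labelled mutant, with a ratio of 0.741 and groups apart (limma adjusted p = 0.220). Fgfr3 and Ctgf had ratios of 0.880 and 0.898, with groups overlapping. Of the 25 tested genes, 11 had groups apart with the libraries labelled mutant higher. Another 2, Sox9 and Bmp6, had groups apart with those libraries lower. Hdac4, a deacetylase that binds and restrains Mef2c and Runx2, had a ratio of 1.04. Foxa2 and Foxa3, forkhead factors of hypertrophy, and Nkx3-2 were below 1 FPKM on average and were not tested. The network chain collagens Col8a1 and Col8a2, the nearest relatives of Col10a1, had ratios of 0.738 and 0.713, below 1 where that of Col10a1 was above it, and neither passed (limma adjusted p = 0.235 and 0.215). Of all 12 tested family relatives, 0 passed in limma (4 at an unadjusted p under 0.05).

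**Figure D5:**
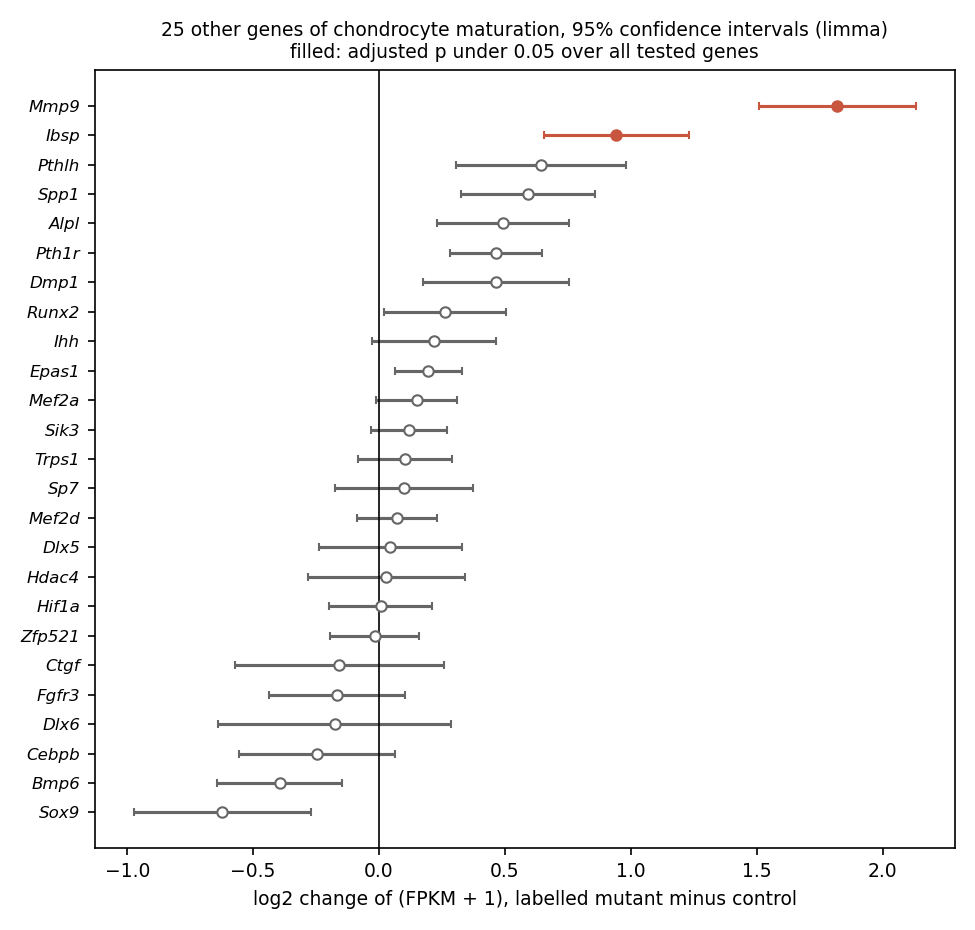
Log2 change of FPKM + 1 (labelled mutant minus control) for 25 other genes of chondrocyte maturation, with 95% confidence intervals from limma. Mmp9 and Ibsp, filled, passed the threshold over all tested genes, and Sox9 lies lowest.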

How the data were processed

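Total RNA of homogenised newborn mouse calvaria was sequenced after a stranded mRNA library preparation, per the labels' protocols. The deposited values are FPKM, made by the authors with Cufflinks 2.2.1. TopHat2 2.0.13, Bowtie2 2.2.3, SAMtools 0.1.19 and the mm10 build also stand in the submitters' processing notes. The sources used here do not give options, annotation, strand setting or read totals. Absolute depth is therefore unknown, the spread between libraries sets the precision, and no count test was run. Cufflinks divides fragments between overlapping genes by a model.

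Groups came from the sample titles, 3 libraries each. The test was limma 3.58.1 (R 4.3.3) on log2(FPKM + 1) for the 13180 genes averaging 1 FPKM or more, with eBayes with trend, group as the only term and two-sided p-values. The Benjamini-Hochberg threshold was 0.05. Changes of low genes are understated on this scale. Single values were compared with exact permutation tests (SciPy 1.17.1). On simulated data for this comparison, 200 of 13180 genes were changed in each of 10 simulations. Folds were those of FPKM + 1, and the noise was normal and independent between genes and libraries. There the test recovered 59.3% of 1.5-fold, 87.5% of 2-fold and 96.4% of 4-fold changes, and 5.1% of calls were false. Shifts shared by many genes of a library, as for cartilage genes in control 3, were not simulated. These rates may therefore not hold for the real libraries.

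The members and the 15 other lists were chosen with earlier results of these data known. Named genes are the members, listed genes past the threshold, the 3 smallest p in lists of related genes, the most abundant genes of cell type lists where they bear on a member, and the 5 tested genes nearest in profile to Mmp13 and to Col10a1. All other genes, such as Runx2 and Panx1, were chosen after their values were seen. In the lists, 1 entry matched no name and 2 matched by another symbol in RefSeq. Of lists not set beside a result, macrophage genes had 2 of 8 higher (Cd68 and Csf1r), of which 1 was called without any 1 library, and inner ear (3 tested), red cell (4 tested) and handling genes (5 tested) had 0 past the threshold in limma (0, 0 and 1 with an unadjusted p under 0.05). Gene positions are those of GENCODE M21 (GRCm38, the assembly of mm10).

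Each alternative changed 1 choice: a pseudocount of 0.1, the filter dropped or set at 5 FPKM, scaling by median of ratios, normalization to equal quantiles, eBayes with no trend or made robust, weights per array, a block for the replicate number, or 1 library fewer, and for the relative measures also the median over a list in place of the mean. For the other lists these were added after seeing the data.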

Additional observations from a re-analysis of the deposited data

How the results depend on the processing

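Mmp13 was called in all 15 alternative fits, and the other 6 members were called in none of those run on them, 15 each and 14 for Runx3, which fell under the 5 FPKM filter. No member changed direction in these fits. The count of genes called, 80, was 50 with no filter on low values, 183 with array weights and 25 with the replicate number as a block. Without 1 library it ran from 16 to 44, with 39, 36 and 44 without controls 1, 2 and 3 and 16, 38 and 35 without libraries 1, 2 and 3 labelled mutant. Fewer libraries entered these fits. No pairing by replicate number was seen. Deviations of same-numbered libraries correlated at 0.02, -0.07 and 0.02, against -0.06 to 0.05 for other pairs. Litters are not given, so this check cannot exclude a pairing. Of the 25 genes called with the block, 22 were also called without it. With the block, 0 cartilage matrix genes, 0 osteoblast genes and 6 osteoclast genes were called, and Ibsp was not. Exact tests within replicate numbers gave p = 0.25 for Col10a1 relative to cartilage matrix and for Mmp13 relative to osteoblast genes, the smallest that 3 pairs allow. Leaving out 1 library moved the difference in Vegfa relative to the hypoxia genes between -0.16 and 0.072, and it was above 0 without control 2 (0.044) or library 1 labelled mutant (0.072), where the cause was not tested. The same differences stayed between 2.22 and 2.99 for Col10a1 relative to cartilage matrix, 0.19 and 0.49 for Mmp13 relative to osteoclast genes, and 1.15 and 1.44 for Mmp13 relative to osteoblast genes. Taking the median over the list in place of the mean gave 2.92, 0.47 and 1.89 for these measures (exact permutation test, p = 0.1 for each). Read totals are unknown, so the limit that depth sets could not be computed.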
